A study of Xenopus laevis with 6 samples.

Results

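Rab GTPases and the proteins of vesicle fusion move cargo between the compartments of a cell and release transmitters and hormones from it. A Rab in its GTP-bound form recruits tethers and motors to a particular membrane, and SNARE proteins on the vesicle (VAMPs) and on the target membrane (syntaxins and SNAP-25) then zip together and fuse the membranes. Some synaptotagmins make the final step respond to calcium, and synapsins hold synaptic vesicles in reserve. In hypothalamus and pituitary the same machinery serves transmitter release from nerve terminals and secretion of hormone granules, and the roles given here are those known from mammals.

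Their transcripts were examined in juvenile *Xenopus laevis*, frogs that weighed 0.8 g on average. Each sample was a block of tissue holding the preoptic area, the hypothalamus and the pituitary. The set was defined by name: gene symbols beginning with rab, syt, stx or vamp followed by a digit, *snap25* with *syp*, and *syn1* to *syn3*. On the Affymetrix array 142 probe sets carried a single symbol of this kind, for 78 genes of the 9271 that had such a probe set. Each gene was read from its probe set with the highest mean signal. The set holds 46 Rab GTPases, 7 proteins that bind or regulate Rabs and share the name prefix, 12 syntaxins, 5 VAMP and SNAP-25 genes, 4 synaptotagmins, and 4 synapsin and synaptophysin genes. Members that no single-symbol probe set represented were not analysed here.

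Frogs received 0.6% saline (frogs 1 to 3) or 20 ng of recombinant frog leptin (rxLeptin) for each g of weight (frogs 4 to 6) into the brain ventricles and were killed 2 h later. There were 3 frogs and 3 arrays per group. Values are log2 signals, and a signal depends on the probe as well as on the transcript, so levels are compared between frogs and not between genes. The labels number the samples as separate frogs, so p-values set the group difference against the spread between frogs. In limma that spread is moderated over all probe sets, so it is not that of the gene alone. The block mixes many cell types, in which fewer cells of a type and less RNA per cell cannot be told apart.

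The blocks were not alike. All 7 measured pituitary markers, of 15 listed, were lowest in saline frog 1, by 0.08 (*pitx1.L*) to 9.17 (*prl.1.L*) on the log2 scale below the next frog. The mean of *pomc*, *gh1* and *cga* was 5.88 in that frog and 12.2 to 13.1 in the other 5. The mean of the 5 measured hypothalamus markers of 10 listed was also lowest in saline frog 1, at 8.40. It was 8.65 to 8.81 in leptin frogs, 8.73 in saline frog 2 and highest in saline frog 3, at 9.34. The parts of pituitary and hypothalamus content in the values of saline frog 1 cannot be told apart. Saline frog 3 had the highest mean of 8 skeletal muscle markers, at 8.64 against 6.06 to 6.62, and the lowest mean of the 6 measured pallial markers of 11 listed, at 8.39 against 9.26 to 9.54. Leptin frog 6 correlated with the other arrays at 0.983 to 0.988 over all probe sets, and the lowest correlation of saline frogs 1 and 3 was also 0.983. The array median was 7.36 in leptin frog 6 and 7.42 to 7.46 in the other 5.

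Several central components of transmitter release hardly varied between frogs in their brightest probe sets. *snap25.L*, the plasma membrane SNARE of neurons and endocrine cells, read 13.64, 13.72 and 13.75 in saline frogs 1 to 3 and 13.70, 13.65 and 13.83 in leptin frogs 4 to 6. *vamp2.L*, the main synaptic vesicle SNARE, read 13.00, 12.96 and 12.92 in saline frogs and 12.87, 13.03 and 12.91 in leptin frogs. *syp.L*, the vesicle membrane protein synaptophysin, read 13.24, 13.18 and 13.21 in saline frogs and 13.17, 13.14 and 13.26 in leptin frogs. In each of these the groups overlapped, and the standard deviation (SD) over the 6 frogs was 0.07, 0.06 and 0.05, respectively. *rab3a.L*, the Rab of synaptic vesicles and granules, read 13.33, 13.27 and 13.06 in saline frogs and 13.28, 13.20 and 13.27 in leptin frogs, with its lowest value in saline frog 3. Other probe sets and core genes varied more. A dimmer *snap25.S* probe set ran from 12.33 in leptin frog 4 to 12.76 in saline frog 2 (SD 0.16). The SD was 0.15 for *syn1.S* and *syn2.S*, 0.33 for *syt1.L* and 0.34 for *rab27a.L*. Both *syt1.L* and *rab27a.L* were dim, at percentiles 31.4 and 26.0 of all probe sets.

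This narrow spread extended to most of the set. The median SD over the 6 frogs was 0.10 among the 78 genes, compared with 0.14 among all 9271 genes. The set was also brighter than average, with a median brightness percentile of 80.8 against 66.0, so both were also compared within bright probe sets. Among genes in the brighter 50% of probe sets the medians were 0.09 for 64 members and 0.12 for all 6202 genes. Members were still brighter there, at a median percentile of 87.4 against 78.9, so brightness was not matched. The part of brightness in the narrower spread was not tested. Without any limit on brightness, the SD was under 0.2 for 66 of 78 members and for 71.0% of all genes. The early endosome Rab *rab5c.L* had the smallest SD, with values from 10.77 to 10.85, followed by the recycling Rab *rab35l.L*, from 10.21 to 10.29.

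**Figure D1:**
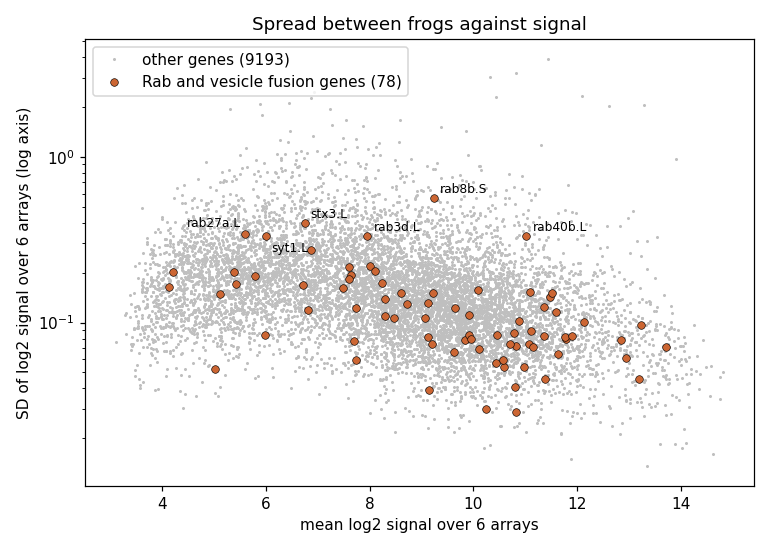
Standard deviation of the log2 signal over 6 arrays (log axis) against mean log2 signal, for the 78 Rab and vesicle fusion genes (orange) and all other genes (grey). Most members lie in the lower part of the cloud, and the labelled genes, led by *rab8b.S* with an SD of 0.56, vary most.

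The relation to pituitary content was read frog by frog, because the hormone signal was low in a single frog and a correlation over arrays would rest on it. The value of saline frog 1, the frog low in hormone transcripts, lay inside the range of the other 5 frogs for 50 of 78 members. It was the lowest for 17 (21.8%, against 15.6% of all genes) and the highest for 11 (14.1%, against 18.8%). Most genes at large thus also lay inside the range in this frog, and a value inside it is no trait of the set. Among the 17, the median gap to the next frog was 0.12 on the log2 scale. A gap of more than 0.5 was found for 1 member, 1.28% of the set, against 0.604% of all genes, and 0 members exceeded the others by as much in this frog, against 0.572%. In each of the other 5 frogs 0 members stood out in either direction. The shares of all genes low in those frogs were 0.173% and 0.809% in saline frogs 2 and 3, and 0.108%, 0.0647% and 1.2% in leptin frogs 4 to 6. The shares high in them were 0.14% and 1.47%, then 0.129%, 0.0863% and 2.24%.

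That member was *rab3d.L*, a granule Rab best known from exocrine cells. It read 7.33 in saline frog 1, then 8.07 and 8.34 in saline frogs 2 and 3, and 7.96, 7.99 and 8.06 in leptin frogs. The other copy, *rab3d.S*, had a dim probe set that read 5.07 in saline frog 1 and 4.94 to 5.44 elsewhere, so only the .L copy was lowest in that frog. The leptin minus saline difference of *rab3d.L* was 0.09 (SE 0.25) with all frogs and -0.20 without saline frog 1.

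The other 5 of the 6 largest shortfalls in saline frog 1 were smaller. *rab11fip5.L*, a partner of the recycling Rab11 proteins, read 8.30 against 8.62 to 8.69 in the others. The synapsin *syn1.S* read 10.82 against 11.06 to 11.27, and the neuronal Golgi Rab *rab6b.S* 11.39 against 11.59 to 11.71. *rab38.S* and *rab32.S*, which serve lysosome-related organelles such as pigment granules, read 5.11 against 5.33 to 5.59 and 3.87 against 4.07 to 4.32. Both were dim, at percentiles 23.5 and 7.01 of all probe sets. The largest excesses were smaller still, at 0.10 for *rab40c.S*, 0.09 for the lysosomal SNARE *vamp7.L*, 0.09 for the early endosome Rab *rab5a.L* and 0.06 for *stx11.S*. The other granule Rabs did not stand out in saline frog 1. *rab27b.S*, which docks secretory granules, read 11.14 there and 10.95 to 11.15 in the others. Its relative *rab27a.L*, with a dim probe set, read 5.31 against 5.18 to 5.95.

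Some general granule cargo and processing genes were lower in saline frog 1, by less than the hormones, and others were not. Of 7 measured granule markers of 10 listed, 0 lay more than 0.5 below the next frog in saline frog 1. The granin *chga.L* read 12.54 there and 12.90 to 13.30 in the others, the prohormone convertase *pcsk2.L* 10.42 against 10.73 to 11.07, and its chaperone *scg5.L* 12.08 against 12.30 to 12.93. By contrast, *scg2.L* was highest in saline frog 1, at 13.61 against 13.50 to 13.59. The remaining markers, *scg3.L*, *cpe.S* and *pam.L*, lay there inside the range of the others. The list mean was 12.24 in that frog and 12.36 to 12.58 in the others.

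**Figure D2:**
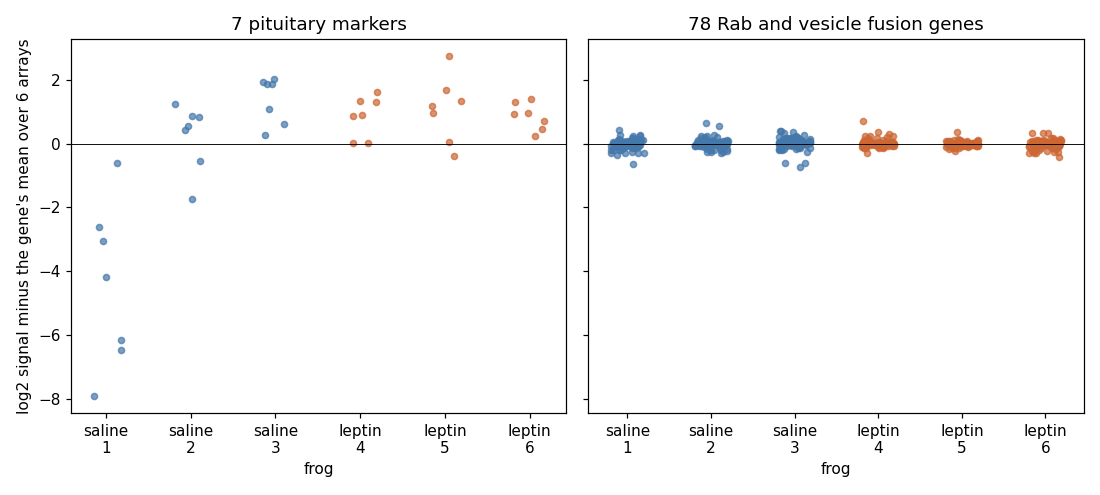
Log2 signal of each gene minus its own mean over the 6 arrays, by frog, for the 7 measured pituitary markers (left) and the 78 Rab and vesicle fusion genes (right) on the same axis; each point is a gene. The hormone genes of saline frog 1 lie far below the others on the left, while on the right its members lie between -0.63 and 0.42.

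The most variable members differed between frogs without separating the groups. *rab8b.S*, a Rab that delivers membrane proteins to the cell surface, read 9.04, 9.89 and 8.51 in saline frogs and 9.94, 9.10 and 8.94 in leptin frogs, a 2.70-fold range on the linear scale. It was high in saline frog 2 and leptin frog 4 and lowest in saline frog 3. The other copy, *rab8b.L*, varied less, with 8.38, 8.29 and 8.04 in saline frogs and 8.11, 8.32 and 8.03 in leptin frogs, and was not high in the same frogs. The *syt1.L* probe set, for the calcium sensor of fast release, was dim, at 6.41, 5.69 and 6.03 in saline frogs and 6.36, 5.77 and 5.68 in leptin frogs, so its largest values came from 1 frog of each group.

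Saline frog 3, low in pallial markers, was also lowest for other variable members. The plasma membrane syntaxin *stx3.L* read 6.97, 7.30 and 6.15 in saline frogs and 6.84, 6.75 and 6.46 in leptin frogs. Both probe sets of *rab40b.L*, a Rab linked to ubiquitin ligases that was chosen after its values were seen, were lowest there, at 10.43 against 10.89 to 11.30 and at 9.66 against 10.24 to 10.63. The pallial markers *neurod6.L* and *eomes.L* read 9.12 and 8.26 in that frog, against 10.74 to 11.16 and 9.74 to 10.32 in the others. The same frog also had the highest means of the skeletal muscle, hypothalamus and pituitary markers. The parts of these differences in the gene values cannot be told apart and were not tested.

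**Figure D3:**
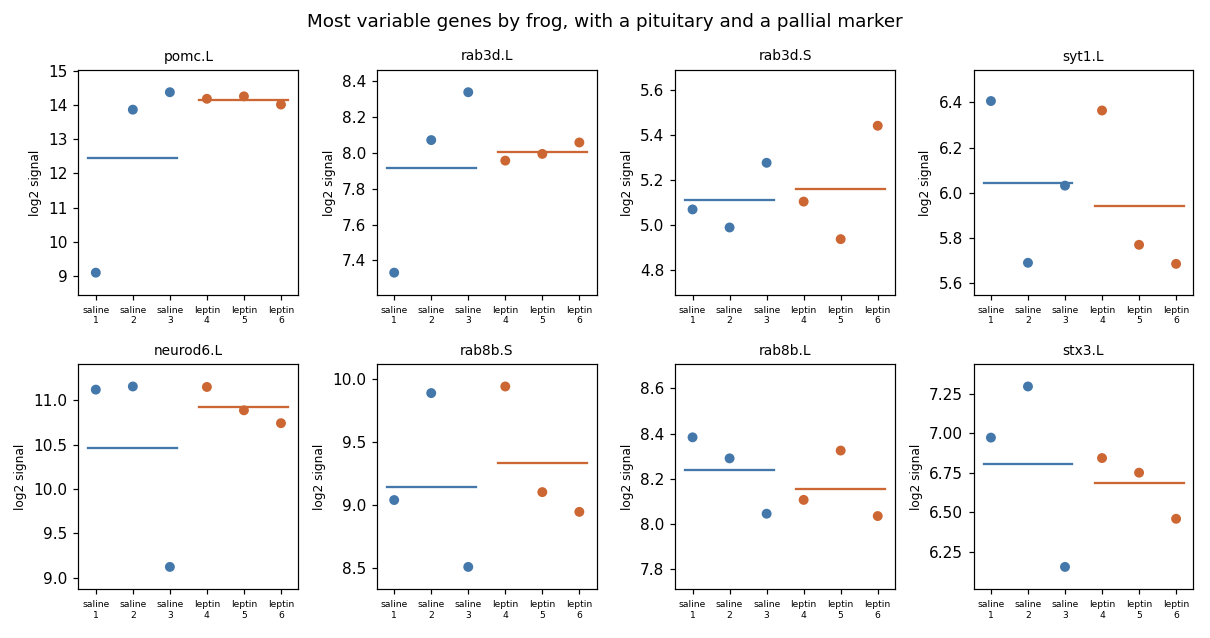
Log2 signal by frog (blue, saline; orange, leptin; horizontal lines, group means, n = 3) for *rab3d*, *rab8b*, *syt1* and *stx3*, with the pituitary marker *pomc.L* and the pallial marker *neurod6.L*. *rab3d.L* is low in the frog with low *pomc.L*, and *rab8b.S* and *stx3.L* are lowest in the frog with low *neurod6.L*; *rab3d.S* and *rab8b.L* vary less than the other copies.

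Leptin and saline frogs were compared to ask whether any transcript of the trafficking machinery responds within 2 h. With limma and Benjamini-Hochberg adjustment, 0 of 78 members passed an adjusted p of 0.05, and 0.0% of all 32539 probe sets did, and the smallest adjusted p among the members was 0.906. At an unadjusted p under 0.05, 1 member was higher (1.28%, against 1.51% of all genes) and 0 were lower (against 3.37%). Of the members, 38 of 78 were higher in leptin frogs, 48.7% against 44.9% of all genes. The median difference was -0.00348 on the log2 scale, compared with -0.0185 over all genes.

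The size of the intervals shows how large a response could have gone unseen. For 77 of 78 members the 95% interval of the difference lay within a 2-fold change in either direction, compared with 95.1% of all genes. The exception was *rab8b.S*, from -0.78 to 1.15. For 71 of 78 the interval lay within a 1.5-fold change, compared with 80.7% of all genes. The other 6 outside that bound, 2 of them (*rab19.L* and *rab40b.L*) named after their values were seen, were *rab19.L*, *rab27a.L*, *rab3d.L*, *rab40b.L*, *stx3.L* and *syt1.L*. These intervals are for each gene alone and are not adjusted for their number. They cover only the brightest probe set of each gene. Dimmer probe sets of some genes counted within the 1.5-fold bound reached past it. Examples are *rab4b.L* (-0.21 to 0.68), *rab27b.L* (-0.64 to 0.05) and *syn1.L*, given below. Of these, *rab4b.L* was chosen after its values were seen.

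**Figure D4:**
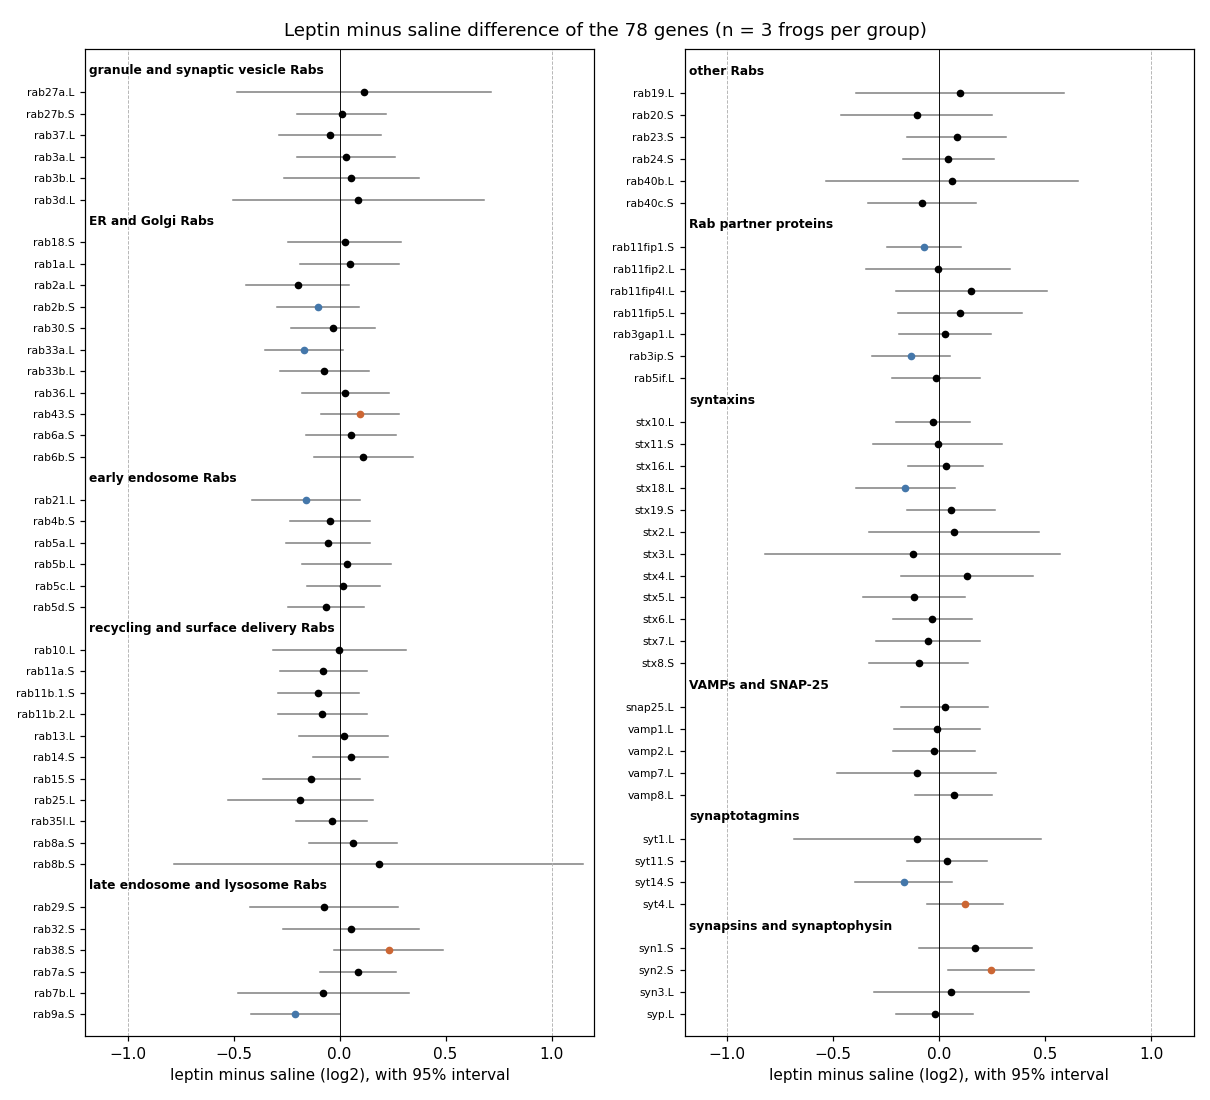
Leptin minus saline difference on the log2 scale with its 95% interval from limma (n = 3 frogs per group) for the 78 genes, by role. Orange and blue points mark the 4 genes whose leptin frogs all lay above and the 8 whose leptin frogs all lay below the saline frogs; dashed lines mark a 2-fold change, which the interval of *rab8b.S* alone crosses.

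The groups did not overlap for 4 members above and 8 below, together 15.4% of the set against 14.4% of all genes. By direction the background was 4.51% above and 9.85% below, so the shares of 5.13% and 10.3% were close to those of genes at large. After quantile or loess normalization these counts were 3 above and 4 below, after median centring 3 and 5, and with each copy of a gene counted 6 and 12 of 103. No share over all genes is given for these settings, so their counts are not compared with genes at large.

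Among the 78 genes, a synapsin had the smallest p. *syn2.S*, a synapsin of central synapses, read 11.33, 11.50 and 11.36 in saline frogs and 11.59, 11.62 and 11.71 in leptin frogs. The lowest leptin frog lay above the highest saline frog. The level was 1.18-fold higher (log2 0.24, SE 0.08, 95% interval 0.04 to 0.45), with an unadjusted limma p of 0.0251 and an adjusted p of 0.906. A dimmer probe set of *syn2.S* also did not overlap (log2 0.16, SE 0.09), whereas *syn2.L* read 7.16, 7.42 and 7.20 in saline frogs and 7.20, 7.24 and 7.10 in leptin frogs and overlapped (log2 -0.08, SE 0.10). Averaged over all probe sets of the gene, the *syn2* difference was 0.11.

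For *syn1* the other copy differed more. *syn1.S* read 10.82, 11.17 and 11.06 in saline frogs and 11.27, 11.13 and 11.15 in leptin frogs, with overlap (log2 0.17, SE 0.11, and 0.07 without saline frog 1). *syn1.L* read 8.49, 8.65 and 8.44 in saline frogs and 9.13, 8.77 and 9.12 in leptin frogs, without overlap (log2 0.48, SE 0.13, 95% interval 0.18 to 0.78). Its unadjusted limma p was 0.00763 and its adjusted p 0.906, so neither copy passed. The neuron markers *nefm.L* and *nefl.L*, neurofilament subunits, differed by 0.66 (SE 0.23) and 0.32 (SE 0.18), the largest differences of their list. Over the 12 measured neuron markers of 13 listed, 8 were higher and 4 lower, among them *ina.L* (log2 -0.08, SE 0.17). Their median difference was 0.05. The list mean lay between 11.98 and 12.12 in saline frogs and between 12.09 and 12.25 in leptin frogs. The part of neuron content in the synapsin values was not tested. *syn3.L* was dim, with a difference of 0.06 (SE 0.15).

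Among all 142 probe sets of the set, 2 were higher at an unadjusted p under 0.05 (against 2.03% of all probe sets) and 2 were lower (against 2.68%). The higher ones were *syn1.L* and *syn2.S*. The lower ones, chosen after their values were seen, were the endolysosomal SNARE *vamp8.S*, at 6.41, 6.42 and 6.55 in saline frogs and 5.99, 6.23 and 6.14 in leptin frogs, and *rab5if.S* (log2 -0.23, SE 0.09). The brighter *vamp8.L* probe set differed by 0.07 (SE 0.08) and that of *rab5if.L* by -0.02 (SE 0.09).

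**Figure D5:**
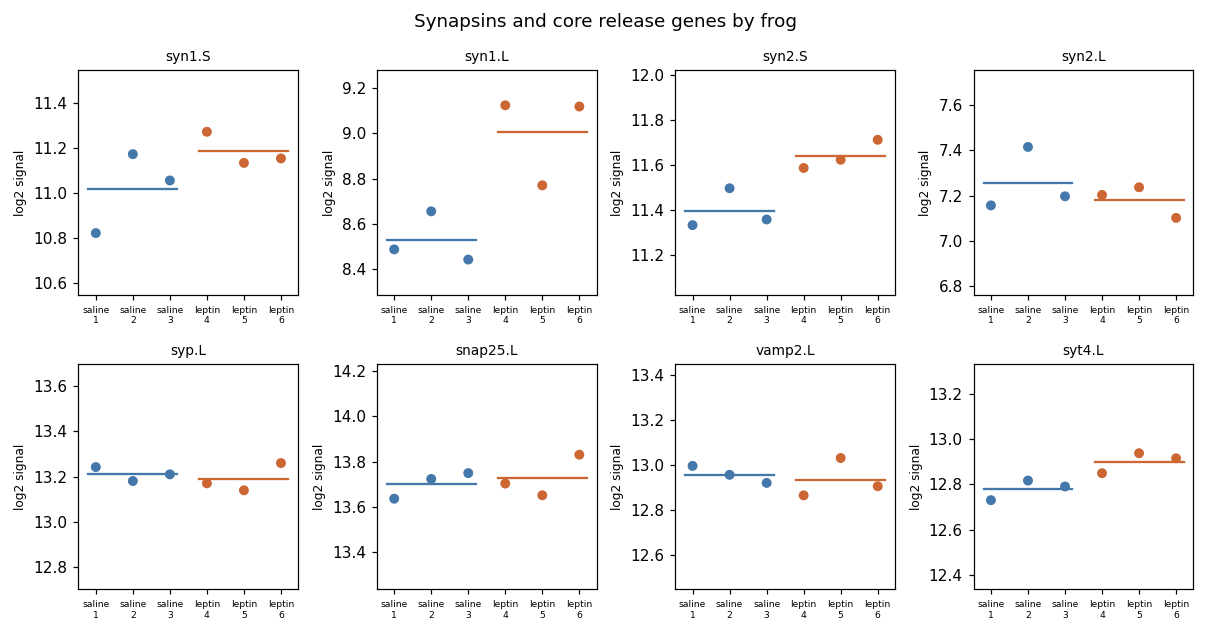
Log2 signal by frog (blue, saline; orange, leptin; horizontal lines, group means, n = 3) of synapsins and core release genes; the axis of every panel spans at least 1 log2 unit. The leptin frogs lie above the saline frogs for *syn1.L*, *syn2.S* and *syt4.L*, by log2 0.48, 0.24 and 0.12 on average, and overlap them in the other panels.

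Synaptotagmins were few and did not pass. *syt4.L*, a family member found on neuropeptide vesicles, read 12.73, 12.82 and 12.79 in saline frogs and 12.85, 12.94 and 12.92 in leptin frogs, without overlap (log2 0.12, SE 0.07). *syt14.S* went the other way without overlap, at 8.81, 8.85 and 8.75 in saline frogs and 8.74, 8.68 and 8.48 in leptin frogs (log2 -0.17, SE 0.09, and -0.09 without leptin frog 6). *syt1.L* differed by -0.10 (SE 0.24) and *syt11.S*, chosen after its values were seen, by 0.04 (SE 0.08).

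Among Rabs of granules and synaptic vesicles, the groups overlapped in 6 of 6 members. Their differences ran from -0.05 to 0.12, with *rab3a.L* at 0.03 (SE 0.10, 95% interval -0.20 to 0.26) and *rab27b.S* at 0.01 (SE 0.09). In the ER and Golgi group of 11, *rab43.S* lay above without overlap (log2 0.10, SE 0.08, and 0.06 without saline frog 1), though a dimmer probe set of it overlapped (log2 -0.03, SE 0.08). *rab33a.L* and *rab2b.S*, the latter chosen after its values were seen, lay below. *rab33a.L*, a Rab of post-Golgi vesicles in neurons, read 10.88, 10.97 and 11.03 in saline frogs and 10.80, 10.80 and 10.78 in leptin frogs (log2 -0.17, SE 0.08). *rab2a.L*, which acts between the ER and the Golgi, differed by -0.20 (SE 0.10) with overlap.

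Endosomal and lysosomal Rabs also had members on both sides. *rab9a.S*, which returns cargo from late endosomes to the Golgi, read 8.45, 8.28 and 8.49 in saline frogs and 8.16, 8.19 and 8.25 in leptin frogs (log2 -0.21, SE 0.09), the lowest difference among the probe sets that represent the 78 genes. The other copy, *rab9a.L*, differed by 0.17 (SE 0.16) in the opposite direction. *rab38.S* read 5.11, 5.33 and 5.46 in saline frogs and 5.59, 5.51 and 5.49 in leptin frogs (log2 0.23, SE 0.11, and 0.14 without saline frog 1), and its signal was dim, at percentile 23.5 of all probe sets. The late endosome Rab *rab7a.S* differed by 0.09 (SE 0.08), *rab5a.L* by -0.05 (SE 0.08) and the recycling Rab *rab11a.S* by -0.08 (SE 0.09), all with overlap.

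Among the syntaxins 4 of 12 were higher and 8 lower in leptin frogs, with differences from -0.16 to 0.13. *stx18.L*, a SNARE for traffic from Golgi to ER, had the smallest p in the group, at 9.13, 9.17 and 9.30 in saline frogs and 9.10, 9.13 and 8.89 in leptin frogs (log2 -0.16, SE 0.10, and -0.09 without leptin frog 6). The groups did not overlap there or in a dimmer probe set of *stx18.L* (log2 -0.27, SE 0.12), while the dimmest one overlapped (log2 0.20, SE 0.15). The 10 probe sets annotated *stx19.S*, a gene chosen after its values were seen, ranged in mean signal from percentile 0.00307 to 83.5 of all probe sets, so the probe sets under that symbol disagree in level. Of the VAMP and SNAP-25 genes 0 of 5 were free of overlap, and *vamp2.L* (log2 -0.02, SE 0.08), *vamp1.L* (log2 -0.01, SE 0.08) and *snap25.L* (log2 0.03, SE 0.08) had 95% intervals within -0.22 to 0.23. *vamp2.S* read 12.76, 12.84 and 12.72 in saline frogs and 12.85, 12.94 and 12.85 in leptin frogs, without overlap (log2 0.11, SE 0.08).

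Among the Rab partner proteins, *rab3ip*, an activator of Rab8 in mammals, was lower without overlap in both copies. *rab3ip.S* read 10.88, 10.80 and 10.89 in saline frogs and 10.78, 10.72 and 10.67 in leptin frogs (log2 -0.13, SE 0.08). *rab3ip.L* read 10.73, 10.77 and 10.80 in saline frogs and 10.69, 10.67 and 10.67 in leptin frogs (log2 -0.09, SE 0.07). Neither copy overlapped, and the adjusted p was 0.906 for each. Of 24 members with both copies measured, this was the 1 in which both copies were without overlap in the same direction, compared with 81 of 2009 such genes in all. The copies had the same sign of difference in 9 of the 24 (37.5%), against 64.2% of the 2009. Some opposite signs came from differences smaller than their SE. Examples are *syp* (log2 -0.02 for .L and 0.02 for .S, SE 0.08 for each) and *snap25* (log2 0.03, SE 0.08, and -0.03, SE 0.09). Whether the copies responded differently was not tested.

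Among related genes outside the set, 0 passed adjustment. Of 39 genes of SNARE assembly and priming, 14 were measured, 9 higher and 5 lower, with a median of 0.03; none had an unadjusted p under 0.05 in limma, and the granule docking factor *rph3a.S* came lowest (log2 -0.21, SE 0.10). Of 15 other SNAREs, 14 were measured, 5 higher and 9 lower, with a median of -0.06. The Golgi SNARE *gosr2.L* was lower without overlap (log2 -0.25, SE 0.08), with an unadjusted limma p of 0.0234 and an adjusted p of 0.906. Of 25 Rab cycle genes, 11 were measured, 4 higher and 7 lower, with a median of -0.09. In limma 0 of the 11 had an unadjusted p under 0.05. An exact permutation test of the list mean gave p 0.2. With 3 frogs per group that test cannot give a p below 0.1, so it cannot decide whether the list differed. The same test gave 0.2 for the other SNAREs, 0.7 for SNARE assembly and priming and 0.8 for the synaptic vesicle membrane genes. In 5 of these 11 (45.5%) the leptin frogs all lay below the saline frogs, compared with 9.85% of all genes and 10.3% of the Rab and vesicle fusion genes. After median centring or quantile normalization 3 did so, and after loess 2, and no share over all genes is given for these settings. The 5 were the Rab5 effector *rabep1.L* (log2 -0.14, SE 0.07), *rabif.S* (log2 -0.16, SE 0.09), both subunits of the enzyme that attaches lipid to Rabs, *rabggta.L* (log2 -0.15, SE 0.10) and *rabggtb.S* (log2 -0.15, SE 0.08), and *chm.L* (log2 -0.09, SE 0.07), which escorts Rabs to that enzyme. *rabggta.L* and *chm.L* were chosen after their values were seen. Of 17 synaptic vesicle membrane genes, 7 were measured, 4 higher and 3 lower. In this list 0 genes were free of overlap. In SNARE assembly and priming 2 of 14 lay above and 0 below, and among the other SNAREs 0 lay above and 2 of 14 below (14.3%). In the deposited values the Rab cycle list thus had the largest share below of the related lists, a count that fell after array scaling, as given above. The array median was lowest in leptin frog 6, and its part in these counts was not tested. The vesicular glutamate transporter *slc17a7.S* read 10.87 in saline frog 3 and 11.43 to 11.53 in the others. That frog had the lowest pallial and the highest muscle, hypothalamus and pituitary marker means, whose parts in this value were not tested.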

How the data were processed

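The deposited table gives 1 log2 signal per probe set and array. Per the submitters' processing notes RMA, affy and limma were used, with versions and roles not given in the sources used here. Per the labels' protocols, each array received RNA amplified from a 250 ng input. Of 32635 probe sets, 96 AFFX controls were left out. The array's annotation gave the symbols; 141 of the 142 member probe sets matched the RefSeq table of assembly Xenopus_laevis_v10.1 by Entrez identifier, with 0 changed symbols. Suffixes .L and .S, marking the copies on long and short chromosomes, were removed to group copies.

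No normalization was added to the deposited values. The test was limma 3.58.1 (R 4.3.3; lmFit and eBayes, two-sided) on treatment with no covariate, with Benjamini-Hochberg adjustment over 32539 probe sets. Differences are leptin minus saline with the moderated standard error (SE). Low or high in a single frog means more than 0.5 below or above the other 5. The limma fit was tested on simulated data with planted changes larger than any difference among the 78 genes. Arrays have no sequencing depth, and their number limits the precision.

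Members and lists were chosen with earlier results of these data known. Named members were the 6 higher and 6 lower with the smallest p, those standing out in 1 frog, the core release genes, and the 4 most and 2 least variable; of related genes, at most 3 per list with the smallest p, plus tissue markers. Any gene outside this rule carries that remark in the text. Alternatives are given in the closing section. No sequences or coordinates are given.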

Additional observations from a re-analysis of the deposited data

How the results depend on the processing

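No member passed adjustment in any of the 18 alternative settings (smallest adjusted p 0.697), which covered array scaling, the brighter 50% of probe sets, the choice of probe set, variance moderation, array weights, adjustment over genes, a pituitary or muscle covariate, and leaving out each frog. Over all probe sets 0 to 4 passed when a frog was left out, 4 of them without saline frog 2, and 1 gene passed when a gene's probe sets were averaged. The median member difference was 0.0116 after median centring, 0.0129 after loess, 0.0107 after quantile normalization and -0.0202 with gene means, and between -0.0193 and 0.00471 with a frog left out. The count of members low in saline frog 1 was 0 with a gap of 1 or with gene means. In saline frog 3 it was 2 after median centring, 1 after quantile normalization and 1 with gene means, and 1 member was high in that frog with each copy counted. No share over all genes is given for these settings, so these counts are not read as a trait of the set. Why they moved was not tested. The *syn2* difference stayed above 0 in 17 of 17 alternatives that gave it (0.11 to 0.29) and had an unadjusted p under 0.05 in 10. Apart from the average over probe sets, all of these read the same *syn2.S* probe set, so their shared sign is no separate support. With each copy counted, a setting left out of these, *syn2.L* differed by -0.08. No paired analysis was possible because the groups share no frog number. With 3 frogs per group, differences as large as the ends of the intervals given could have gone uncalled. An interval that left out 0 did not ensure passing adjustment, as for *syn1.L* and *syn2.S*.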
